A study of Mus musculus with 8 samples.

Results

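The 10 genes described here serve prostaglandin synthesis and reception and were taken by gene symbol: the cyclooxygenase genes Ptgs1 and Ptgs2, the prostaglandin E synthase genes Ptges, Ptges2 and Ptges3, the prostacyclin synthase gene Ptgis, the EP receptor genes Ptger1, Ptger2 and Ptger4, and the prostaglandin F receptor gene Ptgfr. All 10 were found among the 43346 genes of the count table, and 8 passed the filter on low counts. Ptger2 and Ptger4 did not pass and are given as read counts. Prostaglandins are lipid signals that bone cells make and answer to. Phospholipases free arachidonic acid from membranes, the cyclooxygenases COX1 (Ptgs1) and COX2 (Ptgs2) turn it into prostaglandin H2, and terminal synthases turn that into prostaglandin E2, prostacyclin, prostaglandin F2α, prostaglandin D2 or thromboxane, each read by its own G protein-coupled receptors. In osteoblasts Ptgs2 is known as the inducible enzyme and Ptgs1 as the constitutive one, and prostaglandin E2 acts through EP receptors to change both bone formation and the support of osteoclasts.

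The cells were MC3T3, an established mouse pre-osteoblast line that lays down mineralizing matrix in culture. Every sample grew for 7 days with 10 mM beta-glycerophosphate and 100 µg/mL ascorbic acid, which supply phosphate and allow collagen to mature. The LLC_CM group (n = 4) also received 25% medium conditioned by LLC1, a mouse lung carcinoma line, collected after 48 hours without serum. The NCM group (n = 4) is taken as the vehicle group, since it is the only other group and its abbreviation is not explained. The question is what products that carcinoma cells release into filtered medium do to osteoblast gene expression, here to the prostaglandin genes. The labels give no medium share and no time without serum for NCM. Effects of carcinoma products therefore cannot be told apart from those of adding spent, serum-free medium. Whether the 4 samples of a group came from separate cultures is not stated. The p-values therefore cover the variation among these libraries, and some or all of it may be technical.

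Libraries held 27264212 to 35573953 assigned reads, and 3 reads, the limit that a count of 0 allows, came to 0.084 to 0.111 CPM (the read count scaled to library size) per library, for counting error only. All 6 osteoblast markers examined (Runx2, Sp7, Col1a1, Alpl, Bglap and Ibsp) were present in both groups, and all 6 were called lower in LLC_CM. Their levels summed to 20800 to 26200 CPM in LLC_CM and 29300 to 38400 CPM in NCM, most of it from Col1a1 and Ibsp. Over all 14991 genes tested, 18.1% were called lower in LLC_CM and 18.8% higher, the background for the marker counts here. The macrophage markers Itgam and Tyrobp and the mast cell markers Kit, Cpa3 and Tpsb2 had 0 reads in every library, and Ptprc had 0 reads over LLC_CM and 4 over NCM. The 7 macrophage markers found summed to 18.7 to 32.3 CPM in LLC_CM and 11.7 to 17.4 CPM in NCM, most of it from Lyz2, and 2 of the 4 tested, Lyz2 and Fcer1g, were higher in LLC_CM. Fcer1g passed the filter only through LLC_CM, where it is high. Mast cell markers summed to at most 0.0341 CPM, platelet markers to 2.63 to 3.71 CPM in LLC_CM and 2.21 to 3.32 CPM in NCM, and endothelial markers to 1.52 to 1.67 CPM and 2.18 to 2.73 CPM, with Vwf lower in LLC_CM. Of the epithelial markers, Epcam, Krt8 and Krt18 had 0 reads in every library. Muc1 was higher in LLC_CM and passed the filter only through that group. The 5 epithelial markers summed to 1.11 to 2.24 CPM in LLC_CM and 0.318 to 0.709 CPM in NCM. The part of these markers in the results was not tested. In bulk RNA, fewer cells of a type and less RNA per cell cannot be told apart.

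Sequence before the start sites is shown for 4 genes: both cyclooxygenase genes, whose promoters are the textbook contrast of a constitutive and an inducible gene, the prostaglandin E synthase gene that rose, and the receptor gene with the most reads. RefSeq windows on GRCm38.p6 were found for 8 of the 10 genes, all but Ptgis and Ptger1. Each run is the 250 bases before the start, 5′ to 3′ on the gene's own strand. Capitals mark matches, on either strand, to the E-box CACGTG, the C/EBP palindrome TTGCGCAA, the cyclic AMP response element core ACGTCA, the GC box GGGCGG or the TATA box TATAAA. The last run is the first 30 bases of the Ptgs2 transcript.
Ptgs1, chr2:36230176-36230425, plus strand: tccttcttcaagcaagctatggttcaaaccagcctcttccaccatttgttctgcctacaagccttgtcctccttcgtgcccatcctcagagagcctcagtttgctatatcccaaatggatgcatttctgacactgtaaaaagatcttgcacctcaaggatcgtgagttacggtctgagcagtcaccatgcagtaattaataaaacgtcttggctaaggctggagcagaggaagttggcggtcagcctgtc
Ptgs2, chr1:150099781-150100030, plus strand: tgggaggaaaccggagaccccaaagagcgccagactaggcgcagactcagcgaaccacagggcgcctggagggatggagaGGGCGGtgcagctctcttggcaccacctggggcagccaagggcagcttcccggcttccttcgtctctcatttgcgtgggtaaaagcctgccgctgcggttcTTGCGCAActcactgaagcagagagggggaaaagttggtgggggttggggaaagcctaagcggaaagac
Ptges, chr2:30903298-30903547, minus strand: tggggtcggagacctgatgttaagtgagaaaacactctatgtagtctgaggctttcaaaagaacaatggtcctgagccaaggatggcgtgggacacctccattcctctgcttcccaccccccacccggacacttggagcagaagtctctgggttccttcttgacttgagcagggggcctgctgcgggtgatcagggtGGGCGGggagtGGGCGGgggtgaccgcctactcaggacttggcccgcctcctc
Ptgfr, chr3:151837529-151837778, minus strand: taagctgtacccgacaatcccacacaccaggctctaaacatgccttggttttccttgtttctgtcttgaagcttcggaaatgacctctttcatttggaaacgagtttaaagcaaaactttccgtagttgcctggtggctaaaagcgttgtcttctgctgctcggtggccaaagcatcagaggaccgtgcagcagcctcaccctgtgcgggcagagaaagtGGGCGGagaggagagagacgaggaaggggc
Ptgs2, chr1:150100031-150100060, plus strand: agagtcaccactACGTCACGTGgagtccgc

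Positions are of a match's first base, with the first base of the transcript as 1 and the base before it as -1. Ptgs2 carried a GC box at -170 and a C/EBP palindrome at -69. An ACGTCA core and an E-box began at bases 13 and 17 of its transcript and shared 2 letters. Of all 32851 mouse windows of 300 bases, 50 of them after the start, 0.18% held the C/EBP palindrome, 7.51% the ACGTCA core and 7.15% the E-box. Ptges had 2 GC boxes, at -53 and -42, and Ptgfr had 1 at -30 and another at -4, which runs across the start and is not capitalized. The RefSeq starts of Ptges and Ptgfr lie inside the genes' intervals in the deposited table. The Ptges run and part of the Ptgfr run therefore fall within those intervals. The GC box stood in 35.66% of windows and the TATA box in 13.62%. Ptgs1 held no match to any of the 5 motifs in its window. A match describes letters only, and no binding was measured.

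Ptgs1 was the main cyclooxygenase transcript of these cells, and it fell about 4-fold in LLC_CM while Ptgs2 stayed low in both groups. Ptgs1 (ENSMUSG00000047250, chromosome 2, 36230426 to 36252272 in mm10) stood at 32.9, 29.9, 35.3 and 29.7 CPM in LLC_CM replicates 1 to 4 and at 138.9, 131.4, 136.0 and 133.9 CPM in NCM replicates 1 to 4. The groups lay far apart, with the highest LLC_CM library well under the lowest NCM library. Means were 135.1 ± 3.17 CPM in NCM and 32.0 ± 2.65 CPM in LLC_CM (SD, n = 4), a 4.22-fold fall with a log2 fold change of -2.08 ± 0.07 (SE, edgeR's quasi-likelihood test, Benjamini-Hochberg adjusted p = 5.5e-12). A gene model of uncertain status on the other strand covered 3.8% of its exon length.

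Ptgs2 (ENSMUSG00000032487, chromosome 1, 150100031 to 150108227) had 42 to 93 reads per LLC_CM library and 44 to 90 per NCM library. Its levels were 2.995, 1.55, 1.57 and 1.41 CPM in LLC_CM and 2.42, 2.06, 1.55 and 2.84 CPM in NCM. The groups overlapped, and LLC_CM replicate 1 stood well above the other 3 LLC_CM libraries. The log2 fold change was -0.24 ± 0.26 (SE, edgeR, adjusted p = 0.51), a difference within the spread between replicates. Without LLC_CM replicate 1 it was -0.57 (edgeR adjusted p = 0.081).

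Per kb of exon, the only scale on which different genes can be set side by side, Ptgs1 made up 98.2% to 99.0% of the summed cyclooxygenase level in NCM and 92.8% to 96.4% in LLC_CM. The log2 ratio of Ptgs2 to Ptgs1 reads per kb within a library averaged -6.19 ± 0.37 in NCM and -4.38 ± 0.47 in LLC_CM (SD, n = 4). All 4 LLC_CM libraries lay above all 4 NCM libraries, and the difference was 1.81 (exact permutation test, two-sided, adjusted p = 0.0286 over 2 ratios, the smallest p that 4 against 4 libraries allow). Of the 2 genes in this ratio, only Ptgs1 was called. Its libraries reached at most 35.3 CPM in LLC_CM and at least 131.4 CPM in NCM. In fold, that gap is wider than the whole range of Ptgs2, 1.41 to 2.995 CPM. The fall of Ptgs1 alone therefore fixes this p, which adds nothing to the call of Ptgs1.

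**Figure D1:**
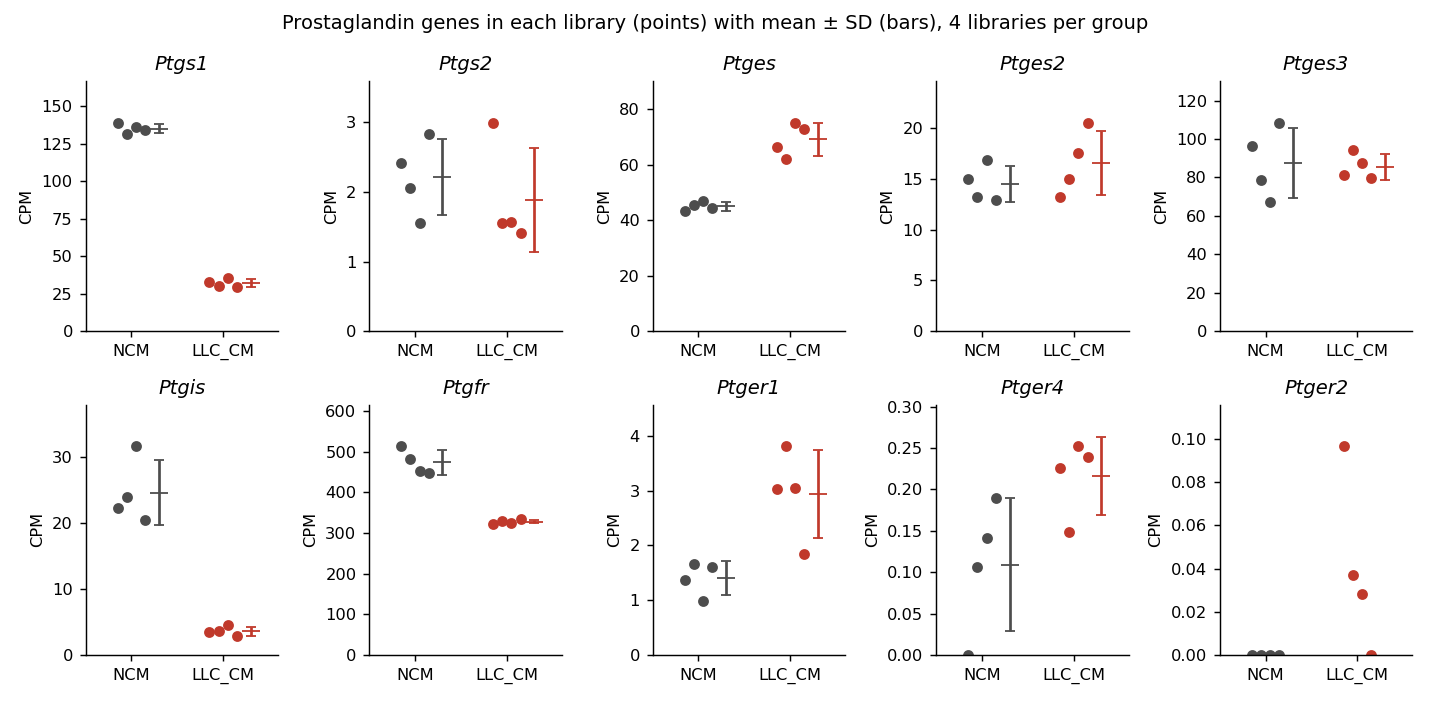
Level of each of the 10 genes in CPM (vertical axis, linear from 0) in the 4 NCM and 4 LLC_CM libraries (points), with the mean and SD beside them except for Ptger2. Ptgs1, Ptgis and Ptgfr are lower and Ptges and Ptger1 higher in every LLC_CM library, while Ptgs2, Ptges2 and Ptges3 overlap between groups.

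The terminal synthases moved apart. Ptges, which encodes the inducible membrane-bound prostaglandin E synthase, rose, and Ptgis, which makes prostacyclin, fell. Ptges (ENSMUSG00000050737, chromosome 2, 30889471 to 30929863) was at 66.5, 62.2, 75.1 and 72.7 CPM in LLC_CM and at 43.3, 45.5, 47.1 and 44.3 CPM in NCM. Every LLC_CM library was above every NCM library. The mean was 1.54-fold higher, 69.2 ± 5.87 CPM against 45.1 ± 1.62 CPM (SD, n = 4), a log2 fold change of 0.62 ± 0.07 (SE, edgeR, adjusted p = 3.6e-06).

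Ptgis (ENSMUSG00000017969, chromosome 2, 167191805 to 167240604) was at 3.41, 3.63, 4.51 and 2.81 CPM in LLC_CM and at 22.3, 24.0, 31.6 and 20.4 CPM in NCM. The groups did not overlap, and NCM replicate 3 was the highest library. Of the 8 genes tested this was the deepest fall, 6.82-fold, from 24.6 ± 4.92 to 3.59 ± 0.70 CPM (SD, n = 4), with a log2 fold change of -2.77 ± 0.16 (SE, edgeR, adjusted p = 4.7e-09). An annotated transcript on the other strand shared 6.1% of its exon length.

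Ptges2 (ENSMUSG00000026820, chromosome 2, 32395896 to 32405772) encodes a membrane-associated prostaglandin E synthase that is present in most cells. It ranged from 13.2 to 20.5 CPM in LLC_CM and from 13.0 to 16.9 CPM in NCM, and the groups overlapped (log2 fold change 0.20 ± 0.13, SE, edgeR, adjusted p = 0.27). Ptges3 (ENSMUSG00000071072, chromosome 10, 128058954 to 128077272) encodes the cytosolic synthase better known as p23, a co-chaperone of Hsp90. It was at 79.5 to 94.3 CPM in LLC_CM and 67.2 to 108.5 CPM in NCM. Its NCM libraries spread more widely than its LLC_CM libraries, with an SD of 18.4 against 6.77 CPM, and the log2 fold change was -0.03 ± 0.13 (SE, edgeR, adjusted p = 0.87). A processed pseudogene of Ptges3 matched it at 100% over 480 bases, so reads from the 2 may have been split between them. That pseudogene, Gm9769 in the table, averaged 35.9 ± 3.56 CPM in LLC_CM and 24.1 ± 6.37 CPM in NCM (SD, n = 4) and was itself called higher, with overlapping groups (log2 fold change 0.58 ± 0.15, SE, edgeR, adjusted p = 0.0088). The value of Ptges3 is therefore uncertain.

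Set against each other within a library, the synthases for prostaglandin E2 and prostacyclin went from near parity to a large excess of Ptges. In NCM, Ptges made up 49.3% to 58.6% of the summed level of Ptges and Ptgis per kb of exon, and in LLC_CM 91.6% to 94.4%. The log2 ratio of Ptges to Ptgis was 0.34, 0.31, -0.04 and 0.50 in NCM and 3.66, 3.48, 3.44 and 4.07 in LLC_CM. The difference of 3.38 was several times the spread within either group (exact permutation test, two-sided, adjusted p = 0.0286 over 2 ratios, again the smallest possible). Each gene alone already separated the groups, in opposite directions, which fixes this p, so it adds nothing to the calls of Ptges and Ptgis. These are transcript ratios, and no prostaglandin was measured.

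**Figure D2:**
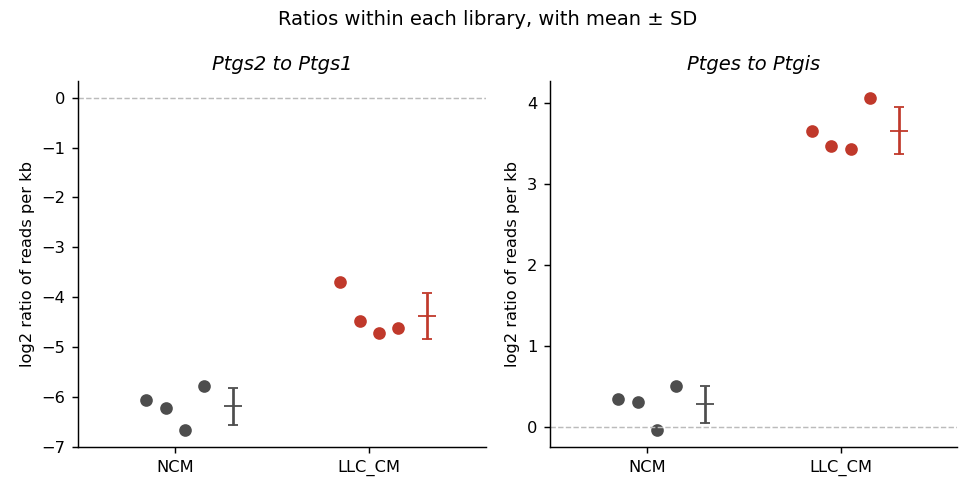
Log2 ratio of reads per kb of exon within each library (vertical axis) for Ptgs2 to Ptgs1 (left) and Ptges to Ptgis (right), with points for libraries and bars for mean and SD. The LLC_CM libraries lie above the NCM libraries in both panels, by 1.81 and 3.38 on average.

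Among the receptors, Ptgfr accounted for nearly all reads, and it fell modestly. Ptgfr (ENSMUSG00000028036, chromosome 3, 151798918 to 151837630), the receptor for prostaglandin F2α, which couples to calcium signalling, was at 323.0, 329.9, 325.5 and 333.5 CPM in LLC_CM and at 512.8, 481.2, 452.2 and 447.6 CPM in NCM. The 4 LLC_CM libraries were tightly grouped below all NCM libraries. The mean was 1.44-fold lower, 328.0 ± 4.68 against 473.4 ± 30.2 CPM (SD, n = 4), a log2 fold change of -0.53 ± 0.06 (SE, edgeR, adjusted p = 7.0e-06). Per kb of exon it made up 99.5% to 99.7% of the summed level of the 4 receptor genes in NCM and 98.5% to 99.2% in LLC_CM.

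Ptger1, the EP1 receptor gene, whose product also raises cell calcium, had the largest rise of the 8 genes tested. Its levels were 3.03, 3.81, 3.05 and 1.85 CPM in LLC_CM and 1.37, 1.67, 0.99 and 1.61 CPM in NCM. The groups did not overlap, but LLC_CM replicate 4 came close to the NCM libraries. The mean was 2.07-fold higher, from 1.41 ± 0.31 to 2.94 ± 0.81 CPM (SD, n = 4), with a log2 fold change of 1.05 ± 0.24 (SE, edgeR, adjusted p = 0.0026). Ptger1 (ENSMUSG00000019464) lies on chromosome 8, from 83666833 to 83672753. The library kit does not mark strand, so reads from the other strand cannot be told apart from those of Ptger1, and its value is uncertain.

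The receptors that raise cyclic AMP were close to absent. Ptger4 (EP4, ENSMUSG00000039942, chromosome 15, 5206661 to 5244187) had 7, 4, 9 and 8 reads in LLC_CM and 0, 3, 4 and 6 in NCM. That is 28 reads over LLC_CM, with an exact Poisson 95% interval of 18.6 to 40.5, against 13 reads over NCM, with an interval of 6.92 to 22.2. The groups overlapped, and with no filter on low counts the log2 fold change was 0.95 ± 0.67 (SE, edgeR, adjusted p = 0.34). Ptger2 (EP2, ENSMUSG00000037759, chromosome 14, 44988195 to 45003820) had 3, 1, 1 and 0 reads in LLC_CM and 0 in every NCM library. Its 5 reads carry an interval of 1.62 to 11.7, and the 0 reads over NCM an interval of 0 to 3.69 of the same two-sided kind. The intervals overlap. With no filter on low counts the log2 fold change of Ptger2 was 3.42 ± 1.67 (SE, edgeR, adjusted p = 0.15), and it rests on 5 reads. A processed pseudogene on the other strand overlapped 15.3% of the Ptger4 exons.

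Across the 10 genes, 8 were tested, 2 rose (Ptges and Ptger1), 3 fell (Ptgs1, Ptgis and Ptgfr) and 3 did not pass the threshold (Ptgs2, Ptges2 and Ptges3). Over all 14991 genes tested, 36.9% were called, 18.8% higher and 18.1% lower, so a call alone does not set a gene apart in this comparison. The groups did not overlap for 5449 of the 14991, so a lack of overlap does not set a gene apart either. These shares are also the background for the counts in the lists below. The median log2 fold change of the 8 was -0.14, against 0.01 over all genes tested. The 8 passed a filter that depends on their level in at least 4 libraries and do not stand for all 10.

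In NCM the order of the levels per kb of exon was Ptgfr at 69.8 ± 4.45, Ptges3 at 39.5 ± 8.29, Ptgs1 at 34.8 ± 0.82, Ptges at 11.5 ± 0.41, Ptgis at 9.57 ± 1.92, Ptges2 at 2.87 ± 0.36, Ptgs2 at 0.48 ± 0.12, Ptger1 at 0.26 ± 0.06 and Ptger4 at 0.0164 ± 0.0121 CPM per kb (SD, n = 4). The ranges of Ptges3 and Ptgs1 overlapped, as did those of Ptges and Ptgis, and the other neighbours in this order did not overlap. In LLC_CM the order changed in its middle. Ptges, at 17.6 ± 1.49 CPM per kb, stood above Ptgs1, at 8.23 ± 0.68, and Ptges2, at 3.28 ± 0.63, stood above Ptgis, at 1.40 ± 0.27. Ptger1 moved ahead of Ptgs2, at 0.54 ± 0.15 against 0.41 ± 0.16 CPM per kb, with overlapping ranges. Ptgfr stayed highest in both groups. With the length given in the deposited table in place of the GENCODE M21 exon length, Ptgfr stood at 75.2 CPM per kb in LLC_CM and 109 in NCM.

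**Figure D3:**
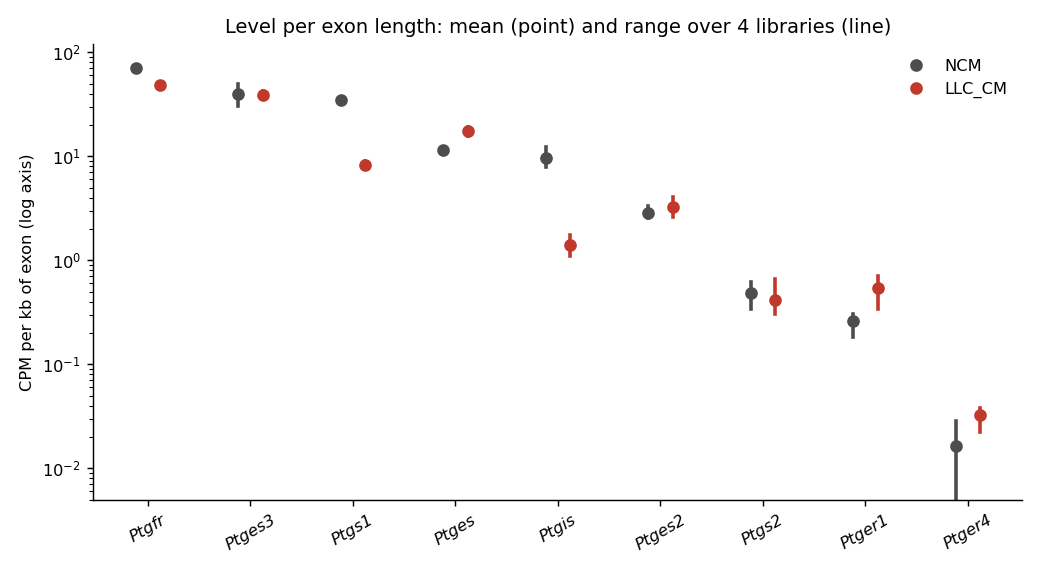
Level of 9 of the genes in CPM per kb of exon (vertical log axis), as the mean (point) and the range over 4 libraries (line) in each group, ordered by the NCM mean. Ptgfr leads in both groups, Ptgs1 and Ptgis drop in LLC_CM, and the NCM line of Ptger4 runs to the lower edge because 1 library had 0 reads.

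Upstream of the cyclooxygenases, genes for the release of arachidonic acid were mixed. Of 17 genes listed, 12 were tested, 2 rose and 4 fell, with a median log2 fold change of -0.16. Pla2g4a, the cytosolic phospholipase A2 that feeds the cyclooxygenases, had the highest CPM, not corrected for length, of those that missed the threshold, at 37.8 ± 1.73 CPM in LLC_CM and 40.3 ± 5.28 CPM in NCM (SD, n = 4, edgeR adjusted p = 0.42). The secreted phospholipase Pla2g5 fell 3.69-fold, from 22.1 ± 2.24 to 5.98 ± 0.43 CPM (SD, n = 4, edgeR adjusted p = 1.6e-09). Pla2g16, a phospholipase best known from fat cells, fell 1.62-fold, and Dagla, which makes the endocannabinoid 2-arachidonoylglycerol, fell 1.61-fold (edgeR adjusted p = 1.2e-06 and 0.0019). Mgll, which breaks that endocannabinoid down and so frees arachidonic acid, had 16, 21, 12 and 30 reads in LLC_CM and 4, 2, 2 and 2 in NCM (edgeR adjusted p = 0.00026). It passed the filter only through LLC_CM, where it is high. It did not pass, and has no value, at a minimum of 1 CPM or without LLC_CM replicate 1 or 4, and it was called in the other 14 alternatives. The remaining calls, Pla2g4c (log2 fold change 0.84 ± 0.31, SE, edgeR, adjusted p = 0.047) and Pla2g12a (-0.29 ± 0.10, adjusted p = 0.032), were marginal. Under the alternatives their adjusted p ran from 0.011 to 0.17 and from 0.019 to 0.091. Pla2g4c kept its call on leaving out a library only without LLC_CM replicate 2, and Pla2g12a lost its call without LLC_CM replicates 2 (0.074) or 4 (0.074) or NCM replicates 1 (0.065) or 2 (0.091).

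Of 7 genes for other prostanoid synthases 4 were tested, with 1 higher and 2 lower and a median log2 fold change of -0.24. Tbxas1, thromboxane synthase, fell 8.49-fold, from 4.41 ± 0.97 to 0.51 ± 0.11 CPM (SD, n = 4, edgeR adjusted p = 5.9e-08). Fam213b, a prostamide and prostaglandin F synthase, rose 3.28-fold, from 2.09 ± 0.55 to 6.83 ± 0.91 CPM (SD, n = 4, edgeR adjusted p = 2.5e-06). Akr1b3, an aldose reductase that can also make prostaglandin F2α, fell 1.19-fold from 108.5 ± 7.87 CPM (SD, n = 4, edgeR adjusted p = 0.0072), and Cbr1, a carbonyl reductase of prostaglandin E2, missed the threshold (adjusted p = 0.39). The prostaglandin D synthase genes had 0 reads (Hpgds) or 1 read (Ptgds) over all 8 libraries.

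Of 6 other receptor genes 3 were tested and 1 fell. Their median log2 fold change of -1.14 is the value of Ptgdr2, which was not called, and Tbxa2r stood at 1.02. Ptgfrn, a membrane protein that binds the prostaglandin F receptor and dampens its ligand binding, fell 3.87-fold, from 57.9 ± 7.41 to 14.9 ± 2.04 CPM (SD, n = 4, edgeR adjusted p = 2.5e-09). Its groups did not overlap. Ptgdr2, a prostaglandin D2 receptor gene, and Tbxa2r, the thromboxane receptor gene, were both under 1 CPM on average in each group and missed the threshold (edgeR adjusted p = 0.14 and 0.098). Ccdc86, on the other strand, shares 39.0% of the Ptgdr2 exons. Ptger3 (EP3), Ptgir (prostacyclin receptor) and Ptgdr did not pass the filter.

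Of 6 genes for prostaglandin breakdown and transport 5 were tested, with 1 higher and 3 lower and a median log2 fold change of -0.22. Hpgd, the dehydrogenase that begins prostaglandin breakdown, had 0 reads in all 8 libraries. Ptgr1, a reductase of later breakdown products, rose 1.42-fold to 56.6 ± 6.41 CPM (SD, n = 4, edgeR adjusted p = 0.00014). Abcc4, which exports prostaglandin E2, fell 1.54-fold to 19.5 ± 2.22 CPM, and Slco2a1, which takes prostaglandins up, fell 1.75-fold to 2.12 ± 0.51 CPM (SD, n = 4, edgeR adjusted p = 6.2e-05 and 0.0023). Zadh2, a further prostaglandin reductase, fell 1.16-fold (edgeR adjusted p = 0.014), and Ptgr2 missed the threshold (adjusted p = 0.92).

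The neighbouring leukotriene branch held larger rises than the prostaglandin genes. Of 14 genes 6 were tested and 5 rose, with a median log2 fold change of 2.31. This count and median include Alox5ap, which was tested only because of its level in LLC_CM. Over all genes tested, 18.8% were called higher, and the median log2 fold change was 0.01. Ggt5 and the dipeptidases Dpep1 and Dpep2, which trim leukotriene C4 to D4 and then E4, rose 54.4-fold, 5.43-fold and 4.51-fold, to 80.7 ± 2.79, 94.4 ± 2.97 and 29.2 ± 6.53 CPM (SD, n = 4, edgeR adjusted p = 4.3e-15, 5.0e-10 and 2.6e-08). Alox5ap, the helper protein of 5-lipoxygenase, rose 6.79-fold to 3.04 ± 0.60 CPM (SD, n = 4, edgeR adjusted p = 1.4e-06), and Ephx2, which hydrolyses epoxides of arachidonic acid, rose 2.62-fold (adjusted p = 0.0012). Alox5ap had 14, 20, 7 and 11 reads in NCM and would not have passed the filter without LLC_CM, where it is high. The enzymes that would feed this branch were near absent, with 2 reads of Alox5 over all 8 libraries and 19 of Ltc4s. Lta4h, at 112.5 ± 7.80 against 103.6 ± 3.90 CPM (SD, n = 4), missed the threshold (edgeR adjusted p = 0.14). An antisense model overlapped 13.3% of the Alox5ap exons, and a second gene model of the same name 37.3% of those of Dpep2.

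**Figure D4:**
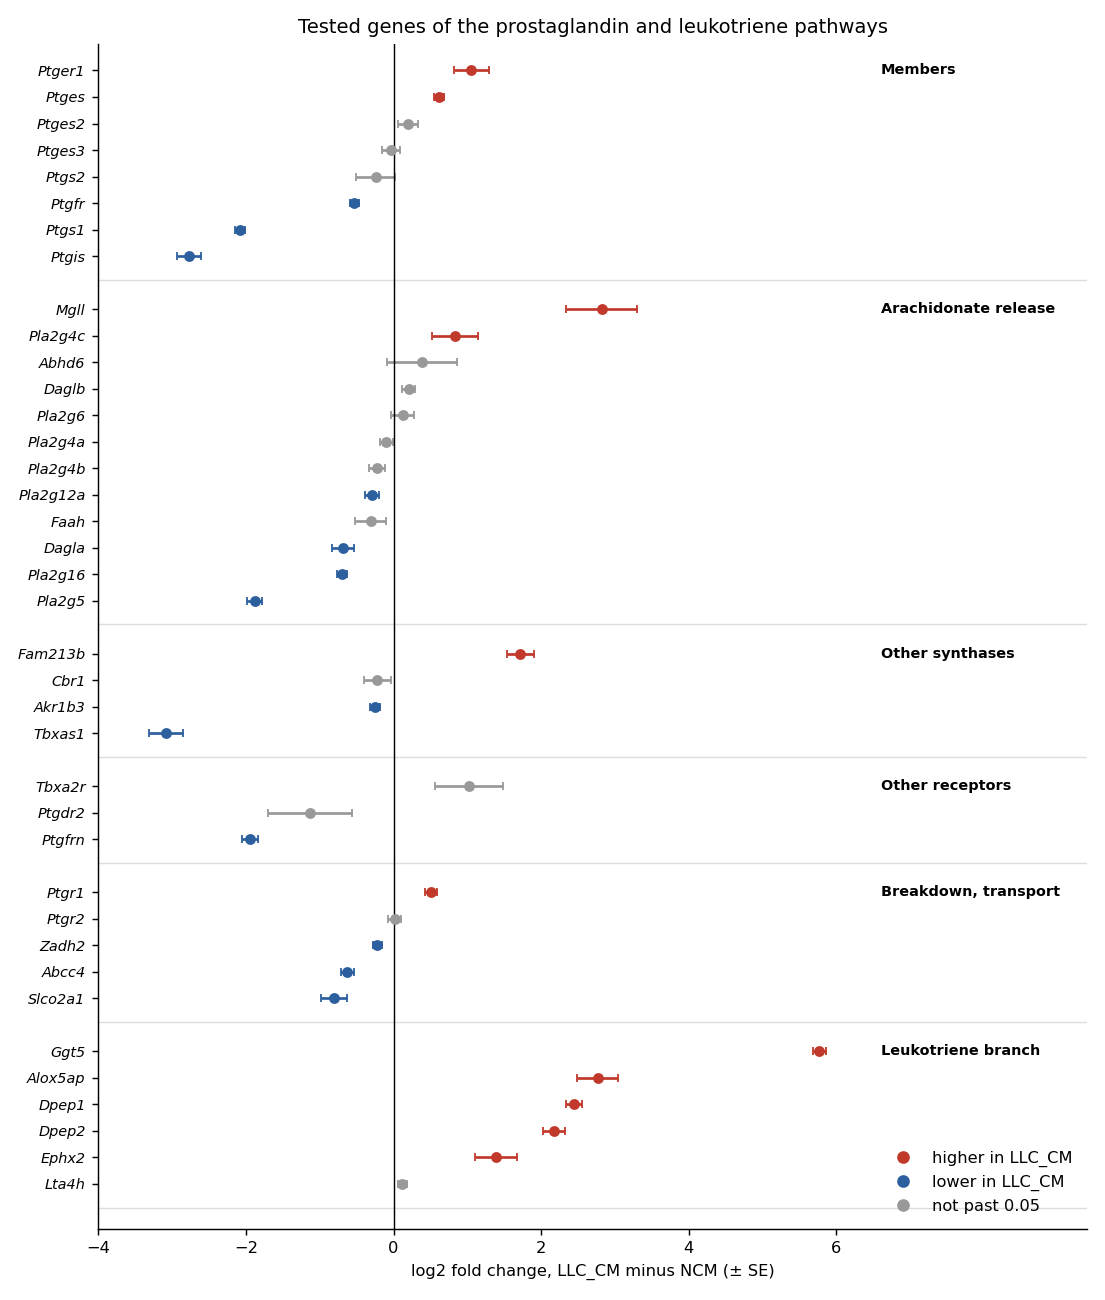
Log2 fold change (horizontal axis, LLC_CM minus NCM, bars are SE) of every tested gene among the 10 and in 5 lists of the prostaglandin and leukotriene pathways, coloured by the call at an adjusted p of 0.05. Ptgis, Ptgs1, Tbxas1, Ptgfrn and Pla2g5 lie furthest to the left, and Ggt5, at 5.77, furthest to the right.

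Factors known to act on the Ptgs2 or Ptges promoters changed in both directions, 2 higher and 4 lower of 12 tested, with a median log2 fold change of -0.07. Cebpd, a C/EBP factor, rose 2.60-fold to 8.76 ± 1.47 CPM and Jun, an AP-1 subunit, 2.75-fold to 5.80 ± 0.70 CPM (SD, n = 4, edgeR adjusted p = 1.9e-06 and 6.1e-06). Egr1, known to drive Ptges through GC-rich sites, fell 2.30-fold from 30.2 ± 2.41 CPM, and Runx2, the osteoblast lineage factor, fell 1.98-fold from 470.1 ± 31.2 CPM (SD, n = 4, edgeR adjusted p = 9.7e-08 and 2.3e-08). Nfkb1, which encodes a subunit of NF-kB, had the highest CPM, not corrected for length, of those that missed the threshold, at 57.3 ± 3.37 against 53.5 ± 1.15 CPM (SD, n = 4, edgeR adjusted p = 0.22). Spidr, on the other strand, shares 15.0% of the Cebpd exons. Whether any of these bears on Ptges or Ptgs2 was not tested.

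Genes known to respond to prostaglandin E2 or cyclic AMP in osteoblasts were split, 4 higher and 5 lower of 14 tested, with a median log2 fold change of 0.01. The list does not separate genes that these signals raise from genes that they lower. The split and the median therefore do not measure a response. The orphan receptor genes Nr4a1 and Nr4a2, early cyclic AMP targets, fell 1.72-fold and 2.32-fold (edgeR adjusted p = 0.00015 and 2.4e-06). Nr4a3 fell 2.3-fold (edgeR adjusted p = 0.0014). The cyclic AMP phosphodiesterase gene Pde4d fell 1.56-fold (edgeR adjusted p = 7.7e-05). Tnfrsf11b, the gene for the osteoclast inhibitor osteoprotegerin, fell 6.07-fold (edgeR adjusted p = 1.5e-11). The 4 that rose were Igf1, a growth factor gene, 4.51-fold to 41.8 ± 6.20 CPM, Pde4b, a relative of Pde4d, 2.18-fold to 3.39 ± 0.52 CPM, Sik1, a kinase gene, 1.41-fold to 15.4 ± 0.62 CPM (SD, n = 4, edgeR adjusted p = 0.0013, 0.00068 and 0.00028), and the cytokine gene Il6. Il6 had 29, 31, 27 and 15 reads in LLC_CM and 6, 0, 3 and 3 in NCM (edgeR adjusted p = 0.00035) and passed the filter only through LLC_CM. Per1, a clock gene that cyclic AMP induces, had the highest CPM, not corrected for length, of those that missed the threshold (edgeR adjusted p = 0.093).

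Ptges3 was also read beside the Hsp90 machinery it serves. Of 7 genes tested there 3 were called higher and none lower, with a median log2 fold change of 0.14 and no fold above 1.17. Fkbp5, an Hsp90-binding immunophilin, rose 1.17-fold to 441.0 ± 12.9 CPM (SD, n = 4, edgeR adjusted p = 0.0067). Calls of Hsp90aa1 and Ahsa1 were marginal (edgeR adjusted p = 0.045 and 0.048) and held under 10 and 2 of 17 alternatives. Leaving out 1 library ended the call of Ahsa1 in all 8 cases (adjusted p = 0.061 to 0.15) and that of Hsp90aa1 in 6, all but LLC_CM replicate 3 and NCM replicate 1 (0.06 to 0.13).

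Genes most like the extremes of the group were found by the root mean square difference, over the 8 libraries, of log2 CPM centred on the NCM mean. Only tested genes were searched, and gene models with Gm, Rik, accession or numbered symbols were left out. The measure includes the difference between groups, so similar log2 fold changes follow from it. Nearest to Ptgis were Pygm, the muscle glycogen phosphorylase gene (difference 0.13), Mepe, a bone matrix phosphoglycoprotein gene (0.15), and Cngb1, a cyclic nucleotide-gated channel gene (0.18), with log2 fold changes of -2.73, -2.93 and -2.81. Nearest to Ptger1 were Arxes2 (0.15), the keratin-associated protein gene Krtap1-5 (0.18) and Pde4b (0.19), with log2 fold changes of 0.93, 0.99 and 1.13.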

How the data were processed

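The deposited table holds raw read counts per gene, whole numbers, for 8 poly(A)-selected libraries. The submitters' processing notes name CASAVA, STAR, featureCounts and mm10, and their versions and settings are not given in the sources used here. Each gene's length in that table, another deposited column in bases, served as an alternative to the exon length of GENCODE M21, which was also used for exon overlaps. Columns were matched to samples by title. Genes were tested with edgeR's quasi-likelihood test (R 4.3.3 and edgeR 4.0.16). It used TMM factors, filterByExpr, robust estimation and Benjamini-Hochberg adjustment over 14991 genes at 0.05, tested on simulated data. CPM use TMM-scaled totals, and each SE was derived from the fold change and its F statistic.

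Ratios within a library used a pseudocount of 0.5 reads and an exact permutation test. The ratio of Ptger4 to Ptger2 was planned but not computed, because Ptger2 had 0 reads in 5 libraries, so 2 ratios were adjusted together. Sequence matches used blastn 2.17.0. No pair of libraries in a group looked like 1 library deposited again: the smallest chi-square per degree of freedom was 7.07, over genes whose reads in the pair summed to 20 or more. The 10 genes and the lists were chosen with earlier results of these data known. Besides the 10, every tested gene of a list could be named, and in lists of over 8 such genes the 4 with the smallest adjusted p and, of those that missed the threshold, the one with the highest CPM. Pla2g4c, Pla2g12a, Nr4a3, Igf1, Sik1, Il6, Pde4b in its list, Gm9769 and the genes given by read count alone were named after their values were seen. A value that bears on strand overlap is not reported here. Of 8 macrophage markers 7 were matched by symbol.

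For scaling, library size alone, upper-quartile factors and DESeq2 size factors were tried. The other alternatives were no filter on low counts, a minimum of 1 CPM in 4 libraries, the DESeq2 Wald test (DESeq2 1.42.0), voom from limma 3.58.1, a block on replicate number, an adjusted p of 0.01, pseudocounts of 1 and 2, and leaving out each library.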

Additional observations from a re-analysis of the deposited data

Results flagged for a closer look

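Of 26 groups of 4 libraries examined (the 10 genes, 2 ratios and the library total in each group), 1 held a library far from the others, and chance flags about 1 in 20. Ptgs2 in LLC_CM replicate 1 stood at 2.995 CPM, or 93 reads, against 1.41 to 1.57 CPM in the other 3 LLC_CM libraries, and the gap was 0.897 of the group's range.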

How the results depend on the processing

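The counts of 2 higher and 3 lower among the 10 genes held under all 17 alternatives of the fit, and the calls of Ptgs1, Ptgis, Ptges, Ptgfr and Ptger1 held in each, with log2 fold changes of -2.14 to -2.05, -2.92 to -2.63, 0.57 to 0.67, -0.56 to -0.50 and 0.91 to 1.21. Leaving out a library, the log2 fold change of Ptges3 ran from -0.15 to 0.0776, of Pla2g6 from -0.0285 to 0.25, of Ptgr2 from -0.0619 to 0.0654, of Fos from -0.13 to 0.0688 and of Vegfa from -0.0902 to 0.083, all without a call. Same-numbered libraries deviated together with correlations of -0.044 to 0.204 across genes, so the numbers were not taken as pairs. With the replicate number as a block, 2810 genes were higher and 2663 lower, against 2814 and 2717. The ratios of Ptgs2 to Ptgs1 and of Ptges to Ptgis kept their differences of 1.81 and 3.38 under the replicate block, where 4 pairs give no adjusted p under 0.12. The level of Ptgfr moved to 75.2 CPM per kb in LLC_CM and 109 in NCM with the deposited length, which is shorter. DESeq2 made 2815 higher and 2964 lower calls. For Ptger2 and Ptger4, depth limits any comparison.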
